A study of Mus musculus with 24 samples.

Results

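The contrast described here asks whether the effect of the Ift20 mutation on the RNA of retinal pigment epithelium (RPE) was different at 3 months (3M) and at postnatal day 29 (P29). It is the mutant over control difference at 3M minus the same difference at P29, on the log2 scale, and it rests on 16 of the 24 libraries of the series. Positive values of this age difference mean that mutants stood higher, relative to controls, at 3M than at P29. Groups were the 3M mutants, the 3M controls, the P29 mutants and the P29 controls, with 4 libraries each. All animals were mice that carried Dct-Cre, a Cre driver under the promoter of the pigment cell gene Dct, controls included. Mutants carried floxed Ift20 in addition. The labels give a mixed background strain, record no sex for any library, and say that RNA was mixed. Which exons were floxed, how many animals gave RNA to a library and how far recombination went are not given in the labels.

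The RPE is a single layer of pigmented cells between the photoreceptors and the choroid. It turns all-trans retinol back into the light-sensitive 11-cis form and takes up the tips that rods and cones shed. Ift20 encodes a small protein of the intraflagellar transport particles that carry cargo along cilia, and it also sits at the Golgi apparatus. Primary cilia are present on RPE cells during their maturation.

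The 16 libraries held between 2009047 and 2792369 counts on genes (median 2453100) and between 13132 and 14114 genes with at least 1 count. Levels are given as CPM, the count divided by the scaled library size after correction by edgeR's TMM factors, and 3 counts, taken as the floor, equal 1.07 to 1.49 CPM. The variation between libraries of a group, as edgeR's biological coefficient of variation, was 14.9% in 3M mutants, 21.9% in 3M controls, 21.8% in P29 mutants and 22.4% in P29 controls. The tests used a spread shared by all 24 libraries. These include the groups of postnatal day 11, at 22.1% in mutants and 32.7% in controls. RPE marker genes were abundant in each library, with a summed level of 71173 to 75052 CPM in 3M mutants and 72063 to 75089 CPM in 3M controls, against 46213 to 48593 CPM in P29 mutants and 53342 to 54274 CPM in P29 controls. The labels do not say that the replicates came from separate animals. The p-values and SDs therefore speak of the spread among libraries alone, and each n counts libraries, not animals. That spread could be technical.

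The groups did not hold the same mix of male and female RNA, which bears on every result below. Xist, the RNA that silences an X chromosome in females, was at 468, 477, 479 and 425 CPM in 3M mutants, against 0, 0, 4.79 and 0 CPM in 3M controls. It was at 494, 410, 478 and 477 CPM in P29 mutants, against 138, 153, 153 and 151 CPM in P29 controls. Ddx3y, an RNA helicase gene of the Y chromosome, was at 47.7, 59.2, 57.9 and 46.3 CPM in 3M mutants, against 174, 172, 187 and 192 CPM in 3M controls. Its level was 37.3, 43.7, 39.7 and 45.5 CPM in P29 mutants, against 155, 182, 153 and 156 CPM in P29 controls. Every library of the mutants and of the P29 controls held both Xist and Ddx3y RNA. Libraries of a group shared nearly the same values, as repeated draws from a shared pool would. Whether they were such draws was not tested. Of the variance of a score over sex-linked genes, 97.1% lay between groups. Genotype, age and the sex mix of a group therefore cannot be told apart. Of the 105 genes called for the age difference, 3 lie on the X chromosome and the others do not.

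**Figure D1:**
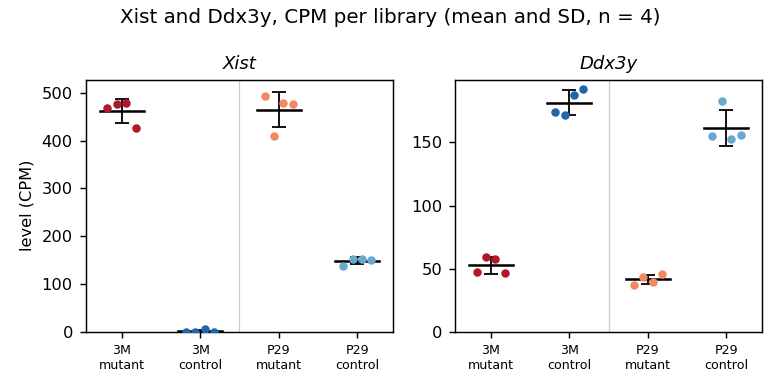
Xist (left) and Ddx3y (right) in CPM for each library of the 4 groups, with points for libraries and bars for the mean and SD (n = 4). The 3M controls sit at or near 0 for Xist while the P29 controls sit between 138 and 153 CPM, and the mutants of both ages lie above 400 CPM.

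Of 12303 genes tested with edgeR's quasi-likelihood test, 105 passed a Benjamini-Hochberg adjusted p of 0.05 for the age difference, which is 0.853% of the genes (1141 had an unadjusted p under 0.05). Of these, 75 had a higher genotype effect at 3M than at P29 (0.61% of all genes) and 30 a lower one (0.244%). At each age taken alone, 321 genes passed at 3M (2.61%) and 350 at P29 (2.84%). Mutants were higher than controls for 262 genes at 3M (2.13%) and for 201 at P29 (1.63%), and lower for 59 genes at 3M (0.48%) and for 149 at P29 (1.21%). The 59 genes lower at 3M became 38 without 3M mutant replicate 4 and 39 without 3M control replicate 4. Across all genes the 2 genotype effects had a Pearson r of 0.144 and a Spearman coefficient of 0.107, given as a description since genes are not independent. The median age difference over all genes was 0.05 (log2), against which the values below are read.

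Called genes mostly had effects of opposite sign at the 2 ages. This held for the estimates of 50 of the 75 genes with a higher effect at 3M and for 26 of the 30 with a lower one, against 46.1% of all genes tested. A sign change and a called age difference are not independent, so these shares describe the called genes. The effect itself passed at both ages with opposite signs for 6 of the 75 genes, which were Fosb, Klf4, Jun, Slc22a8, Aplp1 and Psap, and for 3 of the 30, which were Thbs1, Hspa5 and Myt1l. Myt1l, a neuronal zinc finger gene, had 0 counts in 3M mutants and 12 in 3M controls, with 0, 3.61, 0.872 and 0.808 CPM in the 3M controls, so its 3M groups overlapped near the floor. Its age difference call was lost without 3M control replicate 2 (edgeR adjusted p = 0.0659) and with limma voom (adjusted p = 0.111). It passed at both ages with the same sign for 9 genes, all higher in mutants, among them Xist, the photoreceptor genes Sag, Pde6g, Pdc, Tulp1 and Reep6, and Epb41l2 and Mir124-2hg. Of these, Pdc held its call in 5 of the 16 fits that left out 1 library and lost it with DESeq2, limma voom and median-of-ratios size factors, and Epb41l2 held it in 11. The rest passed at 3M alone (26 of the 75 and 9 of the 30), at P29 alone (29 and 15) or at neither age (5 and 3). In single libraries, mutants and controls did not overlap at 3M for 49 of the 75 genes and 15 of the 30, against 8.07% of all genes. They did not overlap at P29 for 51 of the 75 and 21 of the 30 (7.75% of all genes), and at both ages for 27 and 7 (1.65%). Calls and overlap rest on the same libraries, so these shares too only describe the called genes. In 45 of the 75 genes the 3M controls had the lowest mean of the 4 groups, and in 29 the P29 mutants did. The age difference subtracts these 2 groups, so a called positive value favours a low mean in them. The counts describe the called genes alone. In bulk RNA, fewer cells of a type and less RNA per cell cannot be told apart.

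**Figure D2:**
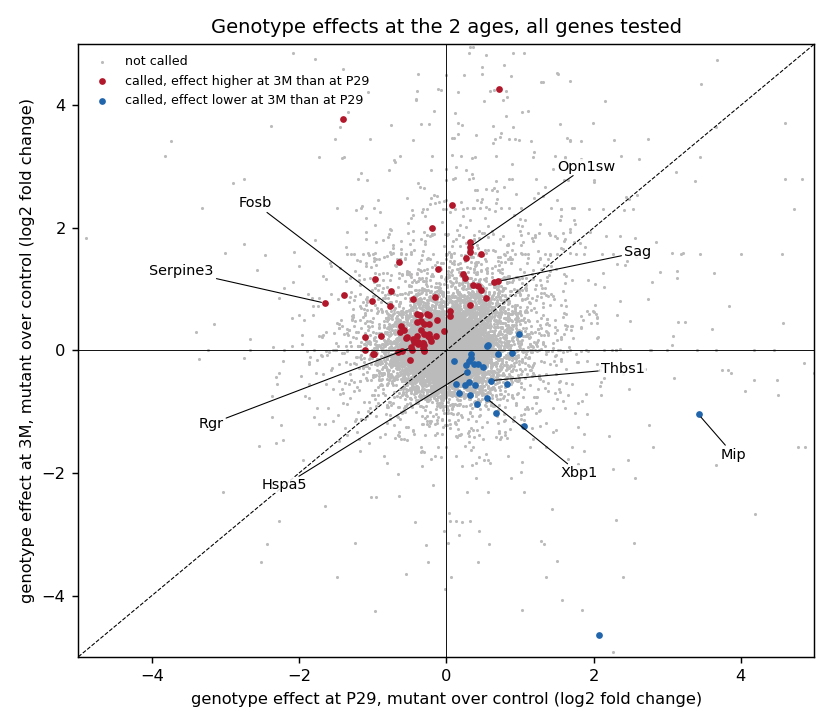
Genotype effect (mutant over control, log2 fold change) at 3M on the vertical axis and at P29 on the horizontal axis, with 1 point per gene tested. Genes called for the age difference are red where the effect was higher at 3M (75) and blue where it was lower (30), the dashed line marks equal effects, and 28 genes, 4 of them called, lie outside the axes.

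Of the 9 genes called at both ages with opposite signs, 3 were immediate early genes: Fosb, Klf4 and Jun. Immediate early genes encode transcription factors, chiefly of the AP-1, Egr and Klf families, and feedback inhibitors that cells transcribe within minutes of a stimulus, and their RNA also responds to tissue handling. Of 25 tested list members 6 were called, each with a higher effect at 3M, beside 0.61% of all genes. For the genotype effect within an age, 4 were higher and 1 lower in mutants at 3M (2.13% and 0.48% of all genes), and 8 were lower and 0 higher at P29 (1.21% and 1.63% of all genes). The median age difference of the list was 0.19, with a median effect of -0.03 at 3M and -0.27 at P29 (log2), beside 0.05, 0.03 and -0.00 over all genes.

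Fosb, an AP-1 subunit (chromosome 7, 19302696 to 19310051, GRCm38, minus strand), was at 204, 231, 207 and 212 CPM in 3M mutants, against 148, 122, 120 and 127 CPM in 3M controls. P29 mutants had 319, 288, 351 and 288 CPM, against 485, 560, 572 and 495 CPM in P29 controls. Mutants lay above controls in every library at 3M and below them in every library at P29. Its age difference was 1.48 with a standard error (SE) of 0.15 (edgeR adjusted p = 2.18e-12), from an effect of 0.72 ± 0.11 (SE, adjusted p = 5.22e-07) at 3M and -0.76 ± 0.10 (SE, adjusted p = 1.61e-08) at P29. Controls therefore differed more between ages than mutants did, by -2.03 ± 0.11 in controls (edgeR adjusted p = 5.08e-31) and by -0.55 ± 0.10 in mutants (adjusted p = 3.39e-05), each for 3M over P29.

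Klf4, a zinc finger factor, was at 133, 166, 149 and 139 CPM in 3M mutants, against 99.3, 56.9, 62.3 and 79.6 CPM in 3M controls. It was at 185, 140, 163 and 194 CPM in P29 mutants, against 292, 283, 291 and 285 CPM in P29 controls. The genotypes did not overlap at either age and stood in opposite order. The age difference was 1.73 ± 0.18 (SE, edgeR adjusted p = 8.41e-12). Jun, the AP-1 partner of the Fos proteins, was at 479, 471, 486 and 439 CPM in 3M mutants, against 374, 387, 385 and 340 CPM in 3M controls. At P29 Jun was at 395, 436, 389 and 437 CPM in mutants, against 607, 655, 639 and 562 CPM in controls. Its order reversed in the same way, with an age difference of 0.91 ± 0.13 (SE, edgeR adjusted p = 2.41e-07).

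Egr1 took another form. It was at 563, 646, 574 and 552 CPM in 3M mutants and at 602, 591, 580 and 608 CPM in 3M controls, which overlapped. It was at 561, 562, 603 and 573 CPM in P29 mutants, against 915, 837, 927 and 951 CPM in P29 controls. This zinc finger factor was thus set apart in P29 controls, and its age difference was 0.63 ± 0.11 (SE, edgeR adjusted p = 4.77e-05). Jund averaged 228 ± 25.8 CPM in 3M mutants and 184 ± 18.5 CPM in 3M controls, and 167 ± 14.02 CPM in P29 mutants and 258 ± 27.4 CPM in P29 controls (SD, n = 4 each), with an age difference of 0.93 ± 0.16 (SE, edgeR adjusted p = 4.23e-05). Junb, chosen after its values were seen, had 0.75 ± 0.19 (SE, edgeR adjusted p = 0.0402), a call that held in only 2 of the 16 fits that left out 1 library, those without P29 control replicate 3 and without P29 mutant replicate 1. In the other 14 its adjusted p lay between 0.0501 and 0.106. Jun, Jund, Junb and Thbs1, described further on, overlap a gene on the opposite strand, and how strand was used in counting is not stated.

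For other members of the list the age difference did not pass. Fos averaged 437 CPM in 3M mutants and 417 CPM in 3M controls, and 618 CPM in P29 mutants and 744 CPM in P29 controls, with an age difference of 0.34 (edgeR adjusted p = 0.689). Nr4a1, an orphan nuclear receptor, had -0.29 (adjusted p = 0.749) and Btg2, an antiproliferative factor, 0.19 (adjusted p = 0.842). Ier2 had -0.42 and Atf3 0.04 on the same log2 scale, and neither passed.

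**Figure D3:**
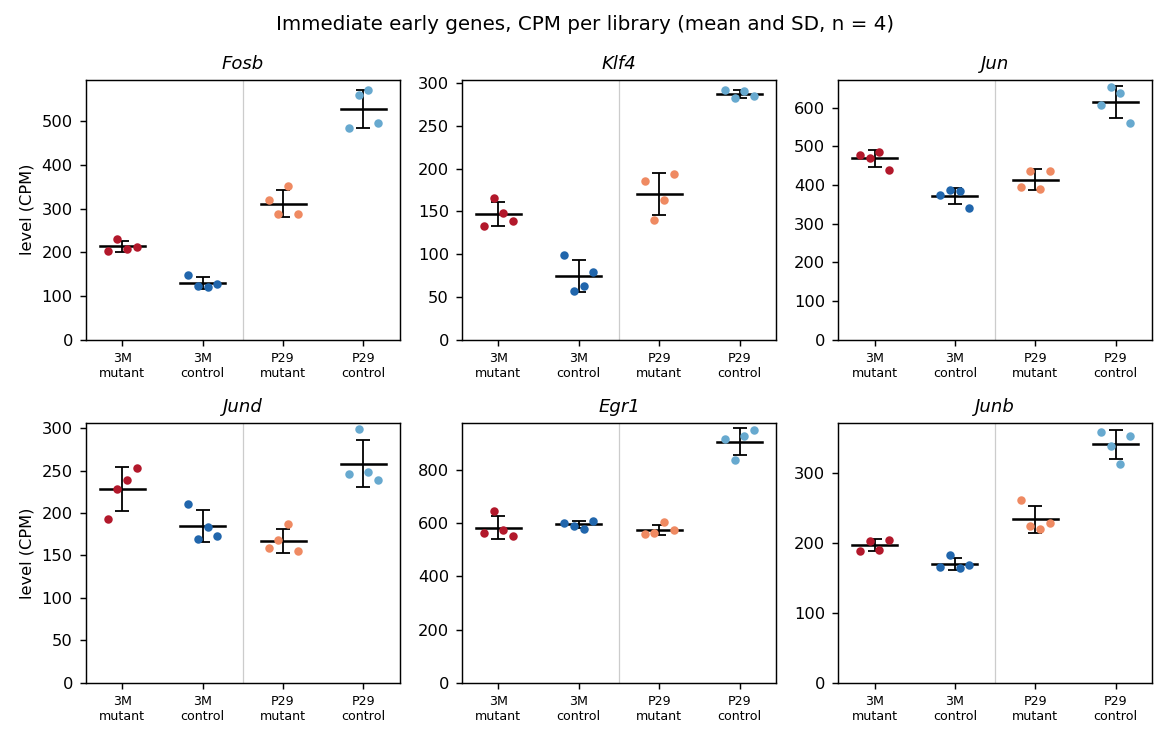
CPM of Fosb, Klf4, Jun, Jund, Egr1 and Junb in each library of the 4 groups, with points for libraries and bars for the mean and SD (n = 4). For Fosb, Klf4 and Jun the mutants lie above the controls at 3M and below them at P29, while the Egr1 values of 3M mutants and 3M controls overlap.

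Several visual cycle genes were lower in P29 mutants, among them 3 whose genotype effect was higher at 3M. Of 16 tested members, 3 were called, Rgr, Rdh5 and Lrat, each with a higher effect at 3M, beside 0.61% of all genes. The count was 5 with limma voom and 1 without a filter on low counts, where the adjusted p was 0.052 for Rdh5 and 0.0563 for Lrat. For the genotype effect within an age, 2 were lower and 1 higher in mutants at 3M (0.48% and 2.13% of all genes), and 6 were lower and 1 higher at P29 (1.21% and 1.63%). The list's median age difference was 0.12 (log2).

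Rgr encodes an opsin of RPE and Müller cells that converts all-trans to 11-cis retinal in the light. It was at 11098, 10110, 9823 and 10672 CPM in 3M mutants and at 10096, 9750, 10055 and 10448 CPM in 3M controls, which overlapped. P29 mutants had 3903, 4136, 3975 and 3858 CPM, against 5472, 5491, 5723 and 5396 CPM in P29 controls. The genotype effect was 0.05 at 3M (edgeR adjusted p = 0.823) and -0.48 ± 0.05 (SE, adjusted p = 1.69e-14) at P29, and the age difference was 0.52 ± 0.06 (SE, adjusted p = 2.81e-09). Rgr rose with age in both genotypes, by 1.39 in mutants and 0.87 in controls (log2, 3M over P29).

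Rdh5, the dehydrogenase that makes 11-cis retinal, followed the same order. Its mean was 5139 ± 154 CPM in 3M mutants and 5168 ± 135 CPM in 3M controls, and 2957 ± 153 CPM in P29 mutants and 3662 ± 171 CPM in P29 controls (SD, n = 4 each). Its age difference of 0.30 ± 0.07 (SE, edgeR adjusted p = 0.0116) was lost without P29 mutant replicate 4 (adjusted p = 0.0507). Lrat, which esterifies retinol for storage, averaged 2017 ± 136 CPM in 3M mutants and 2237 ± 172 CPM in 3M controls, and 1336 ± 34.4 CPM in P29 mutants and 1886 ± 69.2 CPM in P29 controls (SD, n = 4 each). Its age difference was 0.35 ± 0.09 (SE, edgeR adjusted p = 0.0243). That call held in 9 of 16 fits with 1 library left out and was lost without P29 control replicate 3 (adjusted p = 0.0742), P29 mutant replicates 3 (0.0522) and 4 (0.0689), 3M control replicates 1 (0.0507) and 2 (0.0998), and 3M mutant replicates 1 (0.0822) and 2 (0.0861).

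Rpe65, the isomerohydrolase of the cycle and chosen after its values were seen, was lower in mutants at both ages. It averaged 7714 ± 378 CPM in 3M mutants and 8568 ± 290 CPM in 3M controls, and 6037 ± 98.2 CPM in P29 mutants and 7667 ± 219 CPM in P29 controls (SD, n = 4 each). The effect was -0.15 at 3M (edgeR adjusted p = 0.0306) and -0.34 at P29 (adjusted p = 1.59e-09), and the age difference of 0.19 ± 0.06 (SE, adjusted p = 0.121) did not pass. Rlbp1, which carries 11-cis retinal in the cytoplasm, had an age difference of 0.05 and Ttr, the retinol-binding protein's partner in transport, 0.10, neither of which passed.

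The unfolded protein response list held genes of the opposite pattern, among them Hspa5, which was lower in mutants at 3M and higher at P29. The response serves the endoplasmic reticulum (ER). When proteins misfold there, cells splice Xbp1 mRNA and activate ATF6, and both factors raise transcription of chaperones such as Hspa5. Of 21 tested members 3 were called with a lower effect at 3M (Hspa5, Manf and Xbp1) and 1 with a higher one (Atf4), beside 0.244% and 0.61% of all genes. The 3 lower became 5 with DESeq2, 5 with limma voom and 6 with only the 16 libraries. With a score over rod genes or over sex-linked genes as covariate, 0 were called in either direction. Each score lay almost wholly between groups. For the genotype effect within an age, 5 were lower in mutants at 3M (0.48% of all genes), and 1 was higher and 1 lower at P29 (1.63% and 1.21%). The median age difference of the list was -0.30 and was positive for 6 of the 21 members.

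Promoters of this list are shown because the ER stress response element, CCAAT and CCACG with 9 bases between them (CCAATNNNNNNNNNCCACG, both strands searched), was found in 7 of the 18 tested members with a promoter in the RefSeq table (GRCm38.p6). The window covered 250 bases before to 50 after the annotated start, and 39 of all 32851 promoters (0.119%) held the motif. A match is a description of the letters and not evidence of binding. The 3 sequences are chr2:34771840-34772089 (plus strand), chr8:84847055-84847113 (minus strand) and chr10:86705513-86705676 (minus strand), written 5′ to 3′ along the gene with the motif in capitals, and each is shown in part.
Hspa5: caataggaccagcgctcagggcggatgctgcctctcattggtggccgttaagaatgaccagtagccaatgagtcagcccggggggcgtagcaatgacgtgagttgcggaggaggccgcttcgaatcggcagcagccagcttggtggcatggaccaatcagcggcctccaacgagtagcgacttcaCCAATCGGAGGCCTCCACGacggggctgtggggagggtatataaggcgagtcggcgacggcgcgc
Calr: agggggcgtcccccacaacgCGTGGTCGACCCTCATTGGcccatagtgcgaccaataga
Hsp90b1: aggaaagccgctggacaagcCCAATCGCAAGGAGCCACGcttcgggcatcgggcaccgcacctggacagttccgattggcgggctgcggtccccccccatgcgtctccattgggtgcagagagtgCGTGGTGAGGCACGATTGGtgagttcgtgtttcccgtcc
The first match lay 65 bases before the start in Hspa5, 162 in Calr and 212 in Hsp90b1, and the last held 2 matches. The Xbp1 promoter held 0 in this window, and no Manf promoter was found in the table. Of the 7 members with the motif, Hspa5 alone was called for the age difference. The share of motifs therefore describes the list and not its age differences.

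Hspa5, the main Hsp70 chaperone of the ER, was at 820, 743, 848 and 791 CPM in 3M mutants, against 1066, 996, 976 and 1045 CPM in 3M controls. P29 mutants had 939, 912, 889 and 847 CPM, against 726, 722, 732 and 770 CPM in P29 controls. The genotypes did not overlap at either age, with mutants lower at 3M and higher at P29. The effect was -0.35 ± 0.07 (SE, edgeR adjusted p = 0.000239) at 3M and 0.28 ± 0.07 (SE, adjusted p = 0.00605) at P29, and the age difference was -0.63 ± 0.10 (SE, adjusted p = 4.25e-06).

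Xbp1 encodes the transcription factor of the pathway's splicing arm. It was at 59.0, 44.9, 53.0 and 45.4 CPM in 3M mutants, against 87.1, 87.6, 97.6 and 76.8 CPM in 3M controls. P29 mutants had 56.2, 71.3, 65.3 and 63.5 CPM, against 40.7, 43.4, 49.4 and 41.6 CPM in P29 controls. The order of its libraries reversed without overlap, as that of Hspa5 did. Its effect passed at 3M (-0.78, edgeR adjusted p = 0.00401) but not at P29 (0.55, adjusted p = 0.109). The age difference of Xbp1 was -1.33 ± 0.26 (SE, edgeR adjusted p = 0.000759). Manf, a secreted ER stress protein, was at 50.05, 64.9, 45.4 and 50.2 CPM in 3M mutants, against 100, 76.3, 113 and 96.6 CPM in 3M controls. At P29 Manf was at 65.0, 86.3, 55.1 and 57.6 CPM in mutants and at 58.9, 51.4, 46.5 and 41.1 CPM in controls, which overlapped. Manf had an age difference of -1.29 ± 0.25 (SE, edgeR adjusted p = 0.0005), and it overlaps genes on both strands.

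Atf4, the factor of the integrated stress response and chosen after its values were seen, went the other way. It averaged 237 ± 27.6 CPM in 3M mutants and 201 ± 28.9 CPM in 3M controls, and 207 ± 19.1 CPM in P29 mutants and 274 ± 14.9 CPM in P29 controls (SD, n = 4 each). The age difference was 0.64 ± 0.14 (SE, edgeR adjusted p = 0.00507). For 3 further members of the list the age difference was negative and did not pass: Pdia3, a disulfide isomerase, -0.45 (edgeR adjusted p = 0.0718), Calr, a lectin chaperone, -0.30 (adjusted p = 0.135), and Hsp90b1, the Hsp90 of the ER, -0.34 (adjusted p = 0.185). Serpinh1, a collagen chaperone of the ER named by its size and p rather than by this list, averaged 74.2 CPM in 3M mutants and 106 CPM in 3M controls, and 110 CPM in P29 mutants and 89.3 CPM in P29 controls. Its age difference of -0.81 ± 0.20 (SE, edgeR adjusted p = 0.0127) was lost without 3M control replicate 3 (adjusted p = 0.0611).

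**Figure D4:**
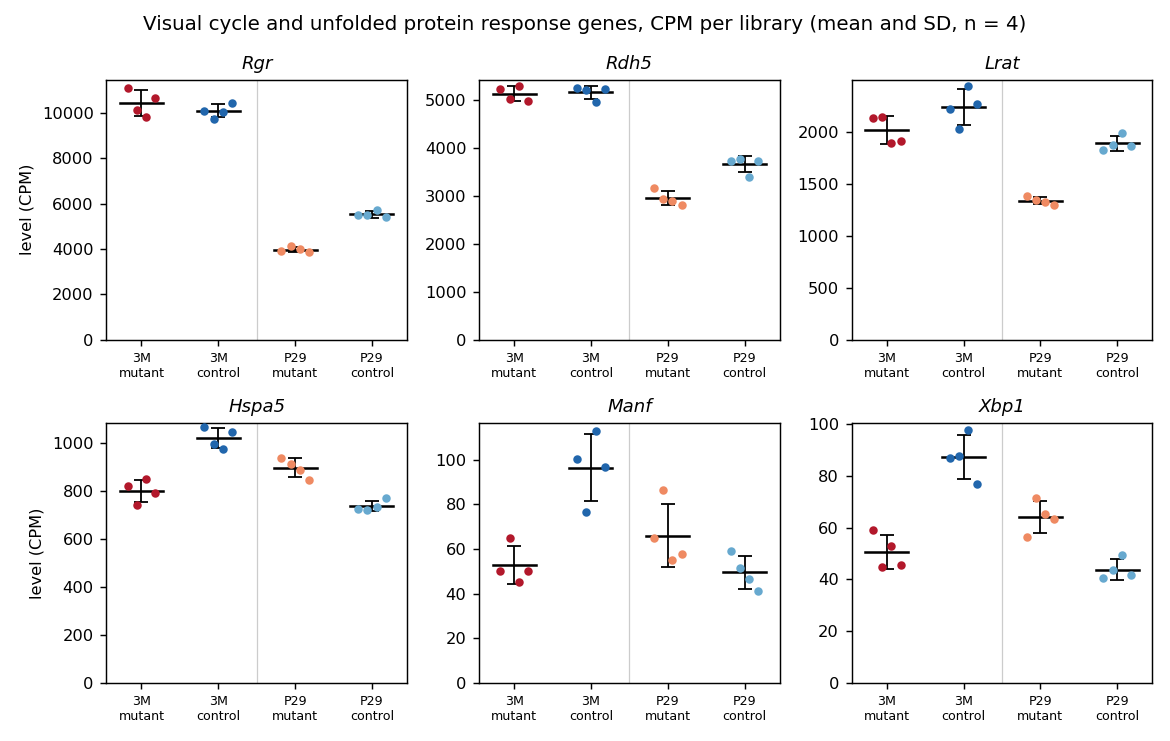
CPM of the visual cycle genes Rgr, Rdh5 and Lrat and of the ER stress genes Hspa5, Manf and Xbp1 in each library of the 4 groups, with points for libraries and bars for the mean and SD (n = 4). Rgr in P29 mutants (3858 to 4136 CPM) lies below P29 controls (5396 to 5723 CPM) while the 3M groups overlap, and Hspa5 in mutants lies below controls at 3M and above them at P29.

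Rod photoreceptor transcripts were higher in mutants at both ages, and on the log2 scale 15 of the 20 markers reported here had the larger effect at 3M. RPE preparations can carry RNA of rods whose outer segments touch the RPE. Of 21 tested rod markers 19 were higher in mutants at 3M and 19 at P29 (2.13% and 1.63% of all genes), and 6 were called with a higher effect at 3M (0.61% of all genes), with a median age difference of 0.32. The summed level of the list was 10678 to 11190 CPM in 3M mutants and 6444 to 6919 CPM in 3M controls, and 21333 to 22730 CPM in P29 mutants and 15551 to 16340 CPM in P29 controls. A rod score over these genes had 99.8% of its variance between groups, so its part in the other results was not tested and cannot be told apart from genotype and age.

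Sag, the rod arrestin that helps to end the light response, was at 888, 879, 909 and 931 CPM in 3M mutants, against 431, 433, 387 and 400 CPM in 3M controls. P29 mutants had 2015, 2038, 1821 and 1848 CPM, against 1228, 1070, 1216 and 1226 CPM in P29 controls. Mutants were above controls in all libraries of both ages. The effect was 1.13 ± 0.06 (SE, edgeR adjusted p = 5.6e-30) at 3M and 0.70 ± 0.06 (SE, adjusted p = 1.64e-17) at P29, and the age difference was 0.42 ± 0.08 (SE, adjusted p = 0.00066). In CPM, however, the mutant minus control difference was 489 at 3M and 745 at P29, so the direction of the age difference depends on the scale.

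The same held for most rod genes. Of the 20 markers 17 had a smaller difference in CPM at 3M, and 12 of these had the larger log2 effect there. Reep6, which shapes ER membranes in rods, was larger at 3M on both scales, with an age difference of 0.70 ± 0.14 (SE, edgeR adjusted p = 0.000914) and CPM differences of 123 at 3M and 102 at P29. Tulp1, a photoreceptor trafficking protein that stood in the phagocytosis list, had an age difference of 0.62 (edgeR adjusted p = 0.00466), with CPM differences of 83.6 at 3M and 90.6 at P29.

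Guca1b, a photoreceptor gene outside the rod list, departed from these. It encodes a guanylate cyclase activator and was at 176, 165, 185 and 155 CPM in 3M mutants, against 77.4, 107, 104 and 82.8 CPM in 3M controls. P29 mutants had 265, 262, 253 and 277 CPM, against 303, 288, 298 and 282 CPM in P29 controls. Mutants lay above controls at 3M, with an effect of 0.88 (edgeR adjusted p = 2.47e-08), and just below them at P29, with -0.15 (adjusted p = 0.708). The age difference was 1.03 ± 0.16 (SE, edgeR adjusted p = 8.81e-06). Slc24a1, the rod sodium, calcium and potassium exchanger, averaged 1269 CPM in 3M mutants and 1098 CPM in 3M controls, and 1034 CPM in P29 mutants and 1206 CPM in P29 controls. Its age difference of 0.43 (edgeR adjusted p = 0.00614) was lost without P29 control replicate 3 (adjusted p = 0.0526).

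**Figure D5:**
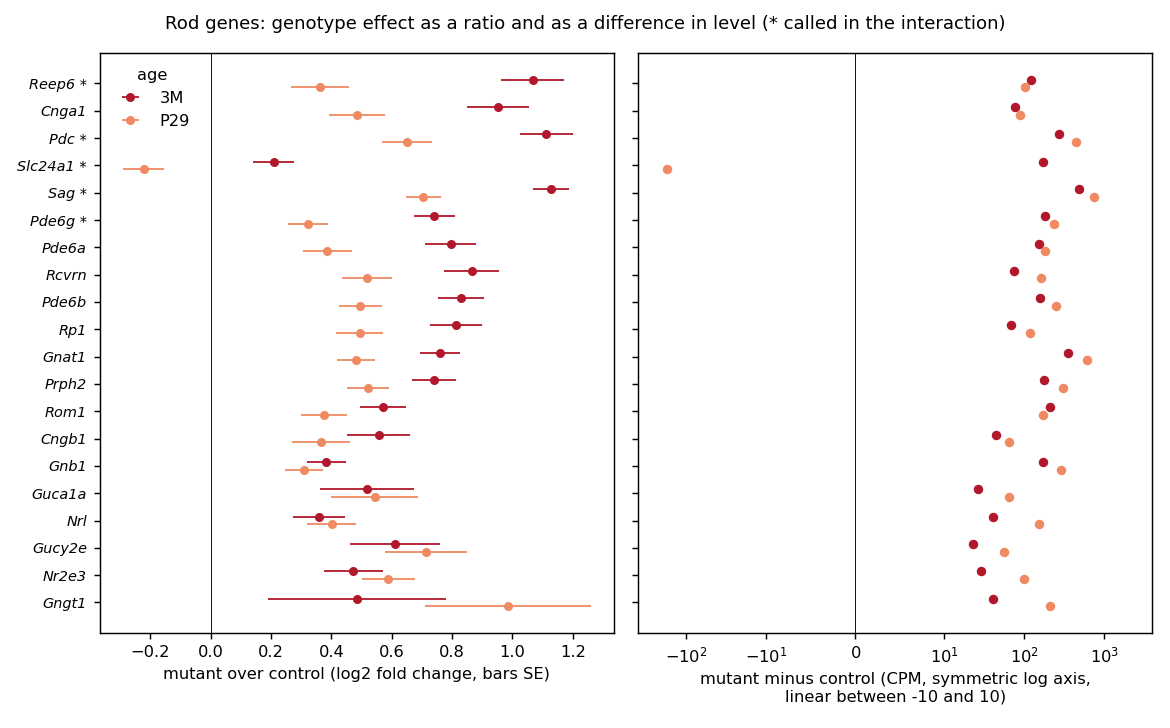
Genotype effect on 20 rod markers, 1 row per gene, at 3M (dark points) and P29 (light points), as log2 fold change with SE bars on the left and as mutant minus control difference in mean CPM on a symmetric log axis on the right, with an asterisk for genes called for the age difference. On the left the 3M point lies to the right of the P29 point for 15 genes, and on the right it lies to the left of it for 17.

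Cone and inner retinal lists also held markers that were higher in mutants. Of 10 tested cone markers 5 were higher at 3M and 1 at P29, and of 23 inner retinal markers 5 at 3M and 3 at P29, beside 2.13% and 1.63% of all genes. Cone markers had summed levels of 241 to 256 CPM in 3M mutants and 144 to 182 CPM in 3M controls, and 254 to 281 CPM in P29 mutants and 190 to 219 CPM in P29 controls. The summed level of the inner retinal list was not higher in mutants, with 678 to 738 CPM in 3M mutants and 675 to 785 CPM in 3M controls, and 747 to 843 CPM in P29 mutants and 760 to 859 CPM in P29 controls. Opn1sw, the short-wavelength cone opsin, averaged 34.0 ± 2.01 CPM in 3M mutants and 10.6 ± 4.53 CPM in 3M controls, and 43.5 ± 7.12 CPM in P29 mutants and 34.9 ± 7.59 CPM in P29 controls (SD, n = 4 each). Opn1sw had an age difference of 1.37 ± 0.32 (SE, edgeR adjusted p = 0.00721), on a gene that overlaps another on the opposite strand. Mir124-2hg, a host transcript of the neuronal miRNA miR-124 that was chosen after its values were seen, averaged 66.2 CPM in 3M mutants and 22.4 CPM in 3M controls, and 98.9 CPM in P29 mutants and 71.5 CPM in P29 controls, with an age difference of 1.11 ± 0.21 (SE, edgeR adjusted p = 0.00039). Tfap2b, a transcription factor of amacrine and horizontal cells, had 2.30 (edgeR adjusted p = 0.0137), lost without P29 control replicate 3 (adjusted p = 0.0681), 3M control replicate 1 (0.0704), 3M mutant replicate 1 (0.11) or 3M mutant replicate 3 (0.052), with limma voom (0.369) and with only the 16 libraries (0.159).

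Lens transcripts marked the P29 mutants. Crystallins are the bulk proteins of lens fibres, and some are also made in the retina and RPE. The summed level of the lens list was 39.9 to 66.7 CPM in 3M mutants and 35.8 to 44.5 CPM in 3M controls, and 1327 to 1418 CPM in P29 mutants and 60.8 to 94.6 CPM in P29 controls. Of 19 tested members 16 were higher in mutants at P29 (1.63% of all genes), and edgeR called none at 3M. Cryba1, a beta crystallin chosen after its values were seen, was at 0, 0.871, 0.898 and 0 CPM in 3M mutants, 4 counts in all, and had 0 counts in 3M controls. It was at 170, 225, 191 and 196 CPM in P29 mutants, against 4.998, 5.98, 3.32 and 1.98 CPM in P29 controls.

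A log2 age difference is poorly determined for such genes because the 3M groups are near the floor, and 2 members passed, Mip and Bfsp1, each lower (0.244% of all genes). The count of lower members was 6 with DESeq2, 8 with limma voom, and 3 without a filter on low counts and with only the 16 libraries. Mip, the water channel of lens fibres, had 9 counts in 3M mutants and 19 in 3M controls, and 697 counts in P29 mutants and 67 in P29 controls. P29 mutants had 63.6, 71.3, 91.8 and 63.9 CPM, against 8.92, 5.98, 3.69 and 8.42 CPM in P29 controls. Mip had an age difference of -4.47 ± 0.77 (SE, edgeR adjusted p = 6.98e-05), on a gene that overlaps another on the opposite strand. Bfsp1, a lens intermediate filament gene, had 9 counts in 3M mutants and 6 in 3M controls, and 213 counts in P29 mutants and 1 in P29 controls. Its call (edgeR adjusted p = 0.0388) was lost without 3M mutant replicates 1, 2 and 4, 3M control replicates 1 and 3, P29 mutant replicates 1 and 3, or P29 control replicates 1, 2 and 4, with adjusted p-values of 0.053 to 0.388, and with DESeq2 (0.194). The part that lens RNA plays in the other age differences was not tested.

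Sterol and lipid genes split into both directions. Of 25 tested members 3 were called with a higher effect at 3M and 1 with a lower one (0.61% and 0.244% of all genes), and the median age difference was 0.27. Msmo1, a demethylase of cholesterol synthesis, was at 131, 139, 138 and 135 CPM in 3M mutants, against 77.8, 98.5, 74.1 and 109 CPM in 3M controls. P29 mutants had 141, 129, 116 and 146 CPM, against 167, 178, 196 and 160 CPM in P29 controls. The order of its libraries reversed between ages without overlap. Its effect passed at 3M (0.59, edgeR adjusted p = 0.00106) but not at P29 (-0.40, adjusted p = 0.0549). The age difference of Msmo1 was 0.99 ± 0.18 (SE, edgeR adjusted p = 0.000122).

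Srebf1 ran opposite to Msmo1. It encodes a transcription factor of fatty acid synthesis and was at 54.4, 54.9, 40.9 and 59.0 CPM in 3M mutants, against 69.0, 73.6, 84.99 and 78.4 CPM in 3M controls. P29 mutants had 54.9, 45.7, 71.7 and 48.6 CPM, against 23.2, 33.9, 35.4 and 32.7 CPM in P29 controls. The age difference was -1.37 ± 0.29 (SE, edgeR adjusted p = 0.00266). Apoe, the lipoprotein that the RPE secretes, averaged 7810 ± 350 CPM in 3M mutants and 7022 ± 486 CPM in 3M controls, and 5945 ± 227 CPM in P29 mutants and 6852 ± 304 CPM in P29 controls (SD, n = 4 each), with an age difference of 0.36 ± 0.07 (SE, edgeR adjusted p = 0.000233). Hmgcs1, an early enzyme of cholesterol synthesis chosen after its values were seen, had 0.75 ± 0.17 (SE, edgeR adjusted p = 0.00664).

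Some called genes were set apart by 1 group. Wfikkn2, a secreted inhibitor of the TGF-beta family member myostatin, was at 281, 320, 312 and 315 CPM in 3M mutants and at 320, 310, 280 and 312 CPM in 3M controls. P29 mutants had 284, 266, 269 and 259 CPM, against 561, 578, 559 and 630 CPM in P29 controls. The P29 controls stood alone, and the age difference was 1.12 ± 0.14 (SE, edgeR adjusted p = 2.97e-09). Ramp2, a co-receptor for adrenomedullin and the 1 called gene of 16 tested endothelial markers (0.853% of all genes were called), averaged 190 ± 30.03 CPM in 3M mutants and 199 ± 24.1 CPM in 3M controls, and 122 ± 10.4 CPM in P29 mutants and 241 ± 11.9 CPM in P29 controls (SD, n = 4 each). Its age difference was 0.92 ± 0.18 (SE, edgeR adjusted p = 0.000605), and it overlaps Vps25 on the same strand.

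The means of Slc22a8, Aplp1 and Psap reversed their order between ages. The P29 groups of Psap overlapped, at 1851 to 2202 CPM in mutants and 2154.5 to 2510 CPM in controls. Slc22a8, an organic anion transporter, averaged 481 ± 42.2 CPM in 3M mutants and 351 ± 30.2 CPM in 3M controls, and 388 ± 21.99 CPM in P29 mutants and 514 ± 43.5 CPM in P29 controls (SD, n = 4 each), with an age difference of 0.86 ± 0.12 (SE, edgeR adjusted p = 6.59e-07). Aplp1, a relative of the amyloid precursor protein, averaged 75.7 CPM in 3M mutants and 43.3 CPM in 3M controls, and 48.6 CPM in P29 mutants and 98.1 CPM in P29 controls (age difference 1.81 ± 0.24, SE, edgeR adjusted p = 3.78e-08). Psap, the precursor of the saposins that lysosomes need to break down sphingolipids, averaged 3112 CPM in 3M mutants and 2586 CPM in 3M controls, and 1990 CPM in P29 mutants and 2343 CPM in P29 controls (age difference 0.50 ± 0.08, SE, edgeR adjusted p = 3.74e-05). Serpine3 was set apart chiefly at P29. This serpin family gene overlaps another on the opposite strand and averaged 50.3 CPM in 3M mutants and 29.5 CPM in 3M controls, and 29.5 CPM in P29 mutants and 92.3 CPM in P29 controls (age difference 2.42 ± 0.33, SE, edgeR adjusted p = 2.77e-07). Its 3M groups overlapped (25.2 to 66.5 CPM in mutants and 22.3 to 37.5 CPM in controls), and its effect of 0.77 at 3M did not pass (adjusted p = 0.0607).

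Pttg1, which encodes securin, and Ptgds, which encodes the abundant prostaglandin D synthase, both increased with age more in mutants than in controls. Pttg1 averaged 165 CPM in 3M mutants and 142 CPM in 3M controls, and 39.2 CPM in P29 mutants and 84.3 CPM in P29 controls, with an age difference of 1.32 ± 0.21 (SE, edgeR adjusted p = 7.84e-06). Ptgds averaged 47781 ± 2298 CPM in 3M mutants and 43933 ± 3408 CPM in 3M controls, and 24832 ± 916 CPM in P29 mutants and 30852 ± 959 CPM in P29 controls (SD, n = 4 each). Its age difference was 0.43 ± 0.06 (SE, edgeR adjusted p = 7.34e-06) and did not pass with limma voom.

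Of the genes with a lower effect at 3M, Thbs1 had the smallest p. It encodes thrombospondin 1, a matrix glycoprotein that activates TGF-beta, and was at 213, 213, 212 and 173 CPM in 3M mutants, against 297, 233, 299 and 310 CPM in 3M controls. P29 mutants had 326, 357, 372 and 320 CPM, against 210, 236, 264 and 193 CPM in P29 controls. The groups did not overlap at either age, and the age difference was -1.10 ± 0.13 (SE, edgeR adjusted p = 2.81e-09). Ccn1, a matrix protein gene, averaged 86.6 ± 7.59 CPM in 3M mutants and 129 ± 25.4 CPM in 3M controls, and 136 ± 17.4 CPM in P29 mutants and 104 ± 17.7 CPM in P29 controls (SD, n = 4 each), with an age difference of -0.96 ± 0.22 (SE, edgeR adjusted p = 0.00632).

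A further set of genes was higher in P29 mutants and did not pass at 3M. A2m, a protease inhibitor, averaged 201 ± 20.7 CPM in 3M mutants and 210 ± 10.9 CPM in 3M controls, and 371 ± 22.6 CPM in P29 mutants and 228 ± 15.9 CPM in P29 controls (SD, n = 4 each), with an age difference of -0.76 ± 0.14 (SE, edgeR adjusted p = 0.00018). Cox8b, a cytochrome c oxidase subunit, averaged 314 CPM in 3M mutants and 259 CPM in 3M controls, and 468 CPM in P29 mutants and 237 CPM in P29 controls (age difference -0.71 ± 0.15, SE, edgeR adjusted p = 0.00183). mt-Co1, a mitochondrially encoded subunit of the same complex, averaged 1483 CPM in 3M mutants and 1548 CPM in 3M controls, and 1951 CPM in P29 mutants and 1555 CPM in P29 controls (age difference -0.39 ± 0.08, SE, edgeR adjusted p = 0.00126). The share of all counts on mitochondrially encoded genes was 5.80% in 3M mutants and 4.83% in 3M controls, and 5.84% in P29 mutants and 5.05% in P29 controls.

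Most immune genes tested had positive age difference estimates. Of 23 tested interferon response genes 1 was called, with a median of 0.48 and 20 positive estimates, and of 21 antigen presentation and complement genes 1 was called, with a median of 0.46 and 17 positive estimates, beside 0.853% called and 54.9% positive over all genes. With limma voom 3 antigen presentation and complement genes were called. H2-Aa, a class II histocompatibility chain, was at 29.7, 27.4, 27.4 and 24.9 CPM in 3M mutants, against 13.04, 11.3, 8.72 and 15.8 CPM in 3M controls. P29 mutants had 19.8, 17.7, 29.0 and 12.9 CPM, against 43.2, 29.5, 44.6 and 38.6 CPM in P29 controls. The groups did not overlap at either age, with an age difference of 2.13 ± 0.45 (SE, edgeR adjusted p = 0.00214). Ifit3, an interferon-induced antiviral gene, had 1.29 ± 0.30 (SE, edgeR adjusted p = 0.00838). Microglia and macrophage markers, of which edgeR called 0 of 17 (2 at an unadjusted p under 0.05, and 1 with DESeq2 and with limma voom), summed to 737 to 794 CPM in 3M mutants and 647 to 743 CPM in 3M controls, and 538 to 555 CPM in P29 mutants and 627 to 697 CPM in P29 controls. Their part in the immune values was not tested.

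Among genes of eye and pigment cell identity, 3 were called: Sox9, Rax and Dct. Sox9, a transcription factor that drives visual cycle genes in RPE, was 1 of 2 called genes among 19 tested eye transcription factors, beside 0.853% of all genes. The other was Rax, a photoreceptor and eye field factor, with an age difference of 1.45 (edgeR adjusted p = 0.031), lost without P29 mutant replicate 3 (adjusted p = 0.0784), P29 control replicate 2 (0.0913), 3M mutant replicates 1 (0.147) and 4 (0.0609) and 3M control replicates 2 (0.0828), 3 (0.13) and 4 (0.0555), with limma voom (0.204) and with only the 16 libraries (0.0753). Sox9 averaged 841 ± 41.6 CPM in 3M mutants and 769 ± 23.8 CPM in 3M controls, and 636 ± 9.34 CPM in P29 mutants and 831 ± 41.96 CPM in P29 controls (SD, n = 4 each), with an age difference of 0.52 ± 0.10 (SE, edgeR adjusted p = 0.000605). Dct, the melanin synthesis gene whose promoter drives the Cre, was at 3235, 3203, 3300 and 3569 CPM in 3M mutants, against 2607, 2703, 2520 and 2834 CPM in 3M controls. P29 mutants had 4595, 4750, 4428 and 4644 CPM and P29 controls 4440, 4564, 4860 and 4932 CPM, which overlapped. Its age difference was 0.35 ± 0.07 (SE, edgeR adjusted p = 0.000479), and it was the 1 called gene of 21 tested pigment and melanosome genes. That list had a median age difference of -0.12, with 9 of 21 estimates positive, so Dct does not stand for it.

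Ciliary genes had no called age difference, which at 0.853% of all genes called does not set these lists apart. Of 29 tested intraflagellar transport and motor genes edgeR called 0, with a median of 0.05, and of 33 BBSome and transition zone genes 0, with a median of -0.19. The smallest p-values belonged to Cluap1, an intraflagellar transport gene, with 0.97 ± 0.35 (SE, edgeR adjusted p = 0.231), and to Bbs9, a BBSome subunit, with 1.10 (adjusted p = 0.213). At an unadjusted p under 0.05 there were 2 genes in the first list and 4 in the second, and DESeq2 and limma voom also called 0 in either.

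Ift20 itself (chromosome 11, 78536361 to 78541737, GRCm38, plus strand) was at 115, 116, 117 and 97.4 CPM in 3M mutants and at 118, 160, 126 and 133 CPM in 3M controls. P29 mutants had 70.1, 57.9, 88.8 and 68.6 CPM and P29 controls 121, 84.9, 124 and 102 CPM. The genotypes did not overlap at 3M and overlapped by 1 library at P29. The effect was -0.26 (edgeR adjusted p = 0.547) at 3M and -0.60 (adjusted p = 0.0112) at P29, and the age difference of 0.34 ± 0.22 (SE, adjusted p = 0.694) did not pass. Since 3' tags can lie outside the deleted exons, the level of Ift20 does not check the labels, and it gives no measure of the loss of protein at either age.

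Shares of the libraries taken by Gm42418 and by reads aligned to several places also differed. Gm42418, the most abundant entry, which overlaps AY036118 on the opposite strand, took 6.45% of counts in 3M mutants and 9.34% in 3M controls, and 9.46% in P29 mutants and 8.52% in P29 controls. Its difference of differences of -3.83 percentage points had an exact two-sided permutation p of 0.000408, the smallest that 4900 arrangements can give (adjusted p = 0.00286 over 7 library measures). Reads aligned to several places took 32.3% in 3M mutants and 33.0% in 3M controls, and 32.4% in P29 mutants and 31.3% in P29 controls (exact permutation p = 0.000816, adjusted p = 0.00286). Their part in the age differences was not tested beyond the fit without Gm42418 in the library sizes, which called 67 genes higher and 32 lower.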

How the data were processed

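Whole-number counts per gene were deposited by the authors, 1 file per library, from RNA of isolated RPE cells. Libraries were made with a kit that reads 3' ends of polyadenylated RNA, per the labels' protocols, and STAR and the mm10 build are named, without versions, per the submitters' processing notes. For the counting tool, annotation, strand setting and molecular identifiers, nothing is stated in the sources used here. Files held 31053 gene identifiers, of which 30934 matched a symbol in a GENCODE annotation of GRCm38, and 5 special entries that were kept apart from library sizes and from every test. Reads with no feature made up 18.6% to 21.9% of a library, ambiguous reads 0.279% to 0.322% and reads aligned to several places 31.0% to 33.2%.

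All 24 libraries were fitted with edgeR 4.0.16 in R 4.3.3 (TMM, filterByExpr, robust quasi-likelihood fit, 1 mean per group), so that groups share 1 estimate of the spread, and the age difference was a contrast of 4 means. The threshold for a call was a Benjamini-Hochberg adjusted p of 0.05, and a standard error is the log2 value divided by the root of F. The floor of 3 counts covers counting error only. Standard errors come from the fitted spread and SDs from the 4 libraries of a group, so both include spread between libraries. Replicate counts differed by more than sampling noise in every pair within a group (chi-square per gene 2.98 to 5.14). Same-numbered libraries of different groups correlated between -0.0234 and 0.0611, so numbers pair nothing. The alternatives comprised DESeq2 1.42.0, its median-of-ratios size factors in edgeR, limma 3.58.1 voom with quality weights, no filter (19634 genes), 5 CPM in 4 libraries (11931 genes), only the 16 libraries, a block for the replicate number, a rod or a sex score (log2 CPM, prior count 1) as covariate, and leaving out each library. Library sizes without Gm42418, autosomal genes alone and differences in CPM were added after seeing the data.

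The comparison, the 45 gene lists and the tests were chosen with earlier results of these data known. Named genes were Ift20, the 15 called genes with the smallest p in each direction that had 5 CPM in at least 1 group and a gene symbol that is no model name, and up to 3 called members of each list (2 members by p where a described list had no call). Most genes outside this rule are marked as chosen after their values were seen. The same holds, without a mark in the text, for Ddx3y, Gm42418 and the genes listed as called at both ages. It also holds for Fos, Nr4a1, Btg2, Ier2, Atf3, Rlbp1, Ttr, Pdia3, Calr, Hsp90b1, Atp6ap1 and Gm4792. In simulated counts (12051 genes) the test recovered 8.96%, 35.8% and 75.8% of genes with age differences of 1.5, 2 and 4-fold, with 7 false calls. The changed genes all had a mean above 5 CPM and more than 1 CPM in each of the 4 groups. Libraries were drawn independently. Recovery was therefore not measured for genes near 0 in a group or for draws from a shared pool. Values of some list members are not reported here. Promoters came from a RefSeq table for GRCm38.p6. Figures were drawn with matplotlib 3.10.9 in Python 3.11.15.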

Additional observations from a re-analysis of the deposited data

Results flagged for a closer look

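Of the 57 named genes, 56 passed edgeR's test of the age difference. All but Ift20 were named because they had passed that test, so this count follows from the choice and is not a result. The values that follow are log2 age differences, 3M minus P29. Among genes with a higher effect at 3M the value was 1.48 for Fosb, 1.73 for Klf4, 6.91 for Xist, 0.52 for Rgr, 1.12 for Wfikkn2, 1.81 for Aplp1, 0.91 for Jun, 2.42 for Serpine3 and 0.86 for Slc22a8. It was 0.43 for Ptgds, 1.32 for Pttg1, 1.03 for Guca1b, 0.50 for Psap, 0.93 for Jund, 0.63 for Egr1, 0.30 for Rdh5, 0.35 for Lrat and 0.35 for Dct. For others in this direction it was 0.62 for Tulp1, 0.44 for Slc2a1, 0.35 for Slc4a5, 0.99 for Msmo1, 0.36 for Apoe, 2.09 for Hspa1b, 1.29 for Ifit3, 2.13 for H2-Aa and 0.60 for Ccnd2. The remaining genes with a higher effect had 0.52 for Sox9, 1.45 for Rax, 0.42 for Sag, 0.70 for Reep6, 0.43 for Slc24a1, 1.37 for Opn1sw, 2.30 for Tfap2b, 0.92 for Ramp2 and 0.63 for Dcn. With a lower effect at 3M the value was -1.10 for Thbs1, -0.63 for Hspa5, -4.47 for Mip, -0.76 for A2m, -1.29 for Manf, -1.33 for Xbp1, -0.39 for mt-Co1, -6.71 for Myt1l, -0.71 for Cox8b and -1.37 for Srebf1. The rest in this direction had -0.49 for Slc26a7, -0.96 for Ccn1, -0.59 for Rpl27, -0.81 for Man1a, -0.81 for Serpinh1, -0.28 for Col8a1, -0.48 for Id2, -2.29 for mt-Nd3, -0.47 for Cryab and -6.66 for Bfsp1. The values of Xist, Myt1l, Mip and Bfsp1 involve a group at or near 0 counts, so they depend on the fit and are not bounds. Among named genes whose calls are not described above, the call held in 3 of the 16 fits that left out 1 library for Cryab, 7 for Slc4a5, 8 for mt-Nd3, 9 for Col8a1, 12 for Id2, 13 for Ccnd2 and 15 for Man1a. That of Slc4a5 was also lost with median-of-ratios size factors, without a filter on low counts and without Gm42418 in the library sizes, and that of mt-Nd3 with limma voom.

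In 15 groups of 4 libraries the highest or lowest library stood far from the others, 14 among 228 groups of named genes and 1 among 28 groups of library measures. Chance alone flags about 1 in 20 groups. In CPM, these single libraries had 173 for Thbs1 and 97.4 for Ift20 among 3M mutants. Among 3M controls they had 4.79 for Xist, 233 for Thbs1, 4966 for Rdh5, 41.0 for Ifit3 and 733 for Sox9. Among P29 mutants they had 110.2 for Ccn1 and 39.8 for Hspa1b. Among P29 controls they had 138 for Xist, 299 for Jund, 3406 for Rdh5, 1070 for Sag and 0.369 for Bfsp1, and the library with the most reads aligned to several places had 31.9%.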

How the results depend on the processing

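The age difference called 75 genes higher and 30 lower. The counts were 133 and 49 with limma voom, 47 lower with DESeq2 and 56 lower with only the 16 libraries. Of the genes with a lower effect, the 16-library fit shared 28 with the fit to all 24. With voom 125 and with the 16 libraries 127 genes were lower in mutants at 3M. The rod score left 4 higher and 2 lower for the age difference, 1 and 0 at 3M and 0 and 0 at P29. With the sex score the fit called 4 and 18 for the age difference, 5 and 18 at 3M and 31 and 24 at P29. The 18 genes lower for the age difference are not among the 30 called without the score, which all lost their call. Both scores lie almost wholly between groups (99.8% and 97.1% of variance), so these fits have little left to estimate genotype from. With 1 library left out, the age difference called 64 to 90 genes higher and 22 to 32 lower, the effect at 3M 198 to 269 higher and 38 to 59 lower, and the effect at P29 163 to 208 higher and 109 to 149 lower. Of the 105 genes 62 were called in all 16 such fits. Across the other settings, the rod and sex scores included, 0 of the 105 kept their call in every one. The fit with the replicate number as a block, which the numbers do not pair, called 77 higher and 27 lower for the age difference.

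No gene changed direction with 1 library left out. Under the rod score Atp6ap1 (-8.95e-06) and Pdc (-0.084) did, and under the sex score Ifit3 (-0.16), Ccnd2 (-0.59), Lrat (-0.065) and Gm4792 (2.36), none with a call. As differences of differences in CPM, Sag (-257), Tulp1 (-6.97), Pde6g (-55.9), Epb41l2 (-12.8) and Pdc (-172) turned negative, among the genes named here. The cause of the other shifts was not tested. Immediate early calls numbered 6, 5 without Gm42418 in the library sizes, 2 with the rod score and 1 with the sex score. With the rod score 0 members were called in the visual cycle, unfolded protein response, rod, sterol and lens lists. With the sex score 1 visual cycle gene was called lower and 1 rod gene higher. The unfolded protein response, sterol and lens lists then had 0 calls. Depth limits genes near the floor of 3 counts, such as the lens genes at 3M.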
